A study of Mus musculus with 18 samples.

Results

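The step from chronically irradiated skin to a benign tumour was described across genes by setting 6 papillomas (PAP) against chronically irradiated, non-lesional skin (CHR) of the same 6 mice. The 12 libraries were taken from the 18 of the series by the sample titles, each of which names a mouse and a lesion, and the PAP and CHR libraries that carry the same mouse number (2, 3, 7, 8, 9 or 10) were treated as a pair. All 14521 entries of the deposited table that have a gene symbol were tested. The animals were female littermates of SKH-1E, an outbred hairless strain prone to tumours under ultraviolet light, so every library of both groups comes from a mouse that lacks a working hairless gene and had received solar-simulated ultraviolet light each week from 3 months of age. Tissue was taken 14 days after the last exposure, and the age on that day is not given in the labels. The study graded each papilloma by histology. CHR is therefore no untreated control, and each group holds 1 sample from each of 6 littermates.

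A papilloma is an outgrowth of squamous epithelium over a thin core of dermis. In normal epidermis, basal keratinocytes attached to the basement membrane by integrins and laminin-332 divide, leave the membrane and switch from keratins 5 and 14 to keratins 1 and 10, and then lay down filaggrin, loricrin and lipids as a barrier. In wounds and in benign skin tumours the programme shifts towards keratins 6, 16 and 17, and signals from the epidermal growth factor (EGF) receptor, RAS and the AP-1 transcription factors are known to drive growth.

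The libraries held 15.5 to 20.5 M reads in CHR and 15.7 to 21.0 M reads in PAP. Levels are given as normalised reads, that is, reads recovered from the deposited values and divided by the size factor of the library, written as the median with the lowest and highest of 6 libraries in parentheses. Differences are PAP minus CHR within the mouse on the log2 scale of the deposited values, with their standard error (SE). A gene is called when its adjusted p in limma was under 0.05, and rose and fell are used for called genes. Of 14521 genes, 3454 were called higher in PAP (23.8%) and 4311 lower (29.7%), and 85.7% of calls moved the same way in all 6 mice. A fold change of at least 2 was reached by 597 genes that rose (4.11%) and by 2259 that fell (15.6%). The ranges of the groups did not overlap for 4878 genes (33.6%). With so many calls, a count of members in a gene list is to be read against these shares.

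Marker genes of several tissues were read in these samples, and their levels moved with the lesion. All 18 skeletal muscle markers fell, with a summed level of 412298 to 620244 normalised reads in CHR and 358 to 31088 in PAP, the highest of which was the papilloma of mouse 2. Of 14 measured adipocyte markers 12 fell, and the defining genes Adipoq, Plin1 and Cfd had medians of 0.896, 0.513 and 1.33 normalised reads in PAP. Dermal fibroblast markers fell in 20 of 24 cases, from a summed level of 161052 to 259384 in CHR to 24503 to 117971 in PAP. At the same time 14 of 22 pan-keratinocyte genes rose, with a median difference of 0.82. In such bulk samples fewer cells of a type and less RNA per cell cannot be told apart, and the part of this shift in the results below was not tested. As a rough reference to the amount of epithelium, each library was also scaled so that the 22 pan-keratinocyte genes had a median ratio of 1. This moved the median of all genes to -0.73, left 383 genes higher (2.64%) and put 10229 lower (70.4%), so that 3.61% of calls were increases in place of 44.5%. All 383 were also called higher without that scaling. The 22 reference genes did not move alike. Under that scaling 7 of them were called higher and 5 lower, and their median difference became -0.09. Of 55 gene lists 30 had a median above 0, and 7 under this scaling, with a change of sign in 23. Where a list or gene described changes sign under this keratinocyte scaling, the sign is given beside it. Of 227 genes named, 28 kept their sign but lost their call under it, which is not marked for each.

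**Figure D1:**
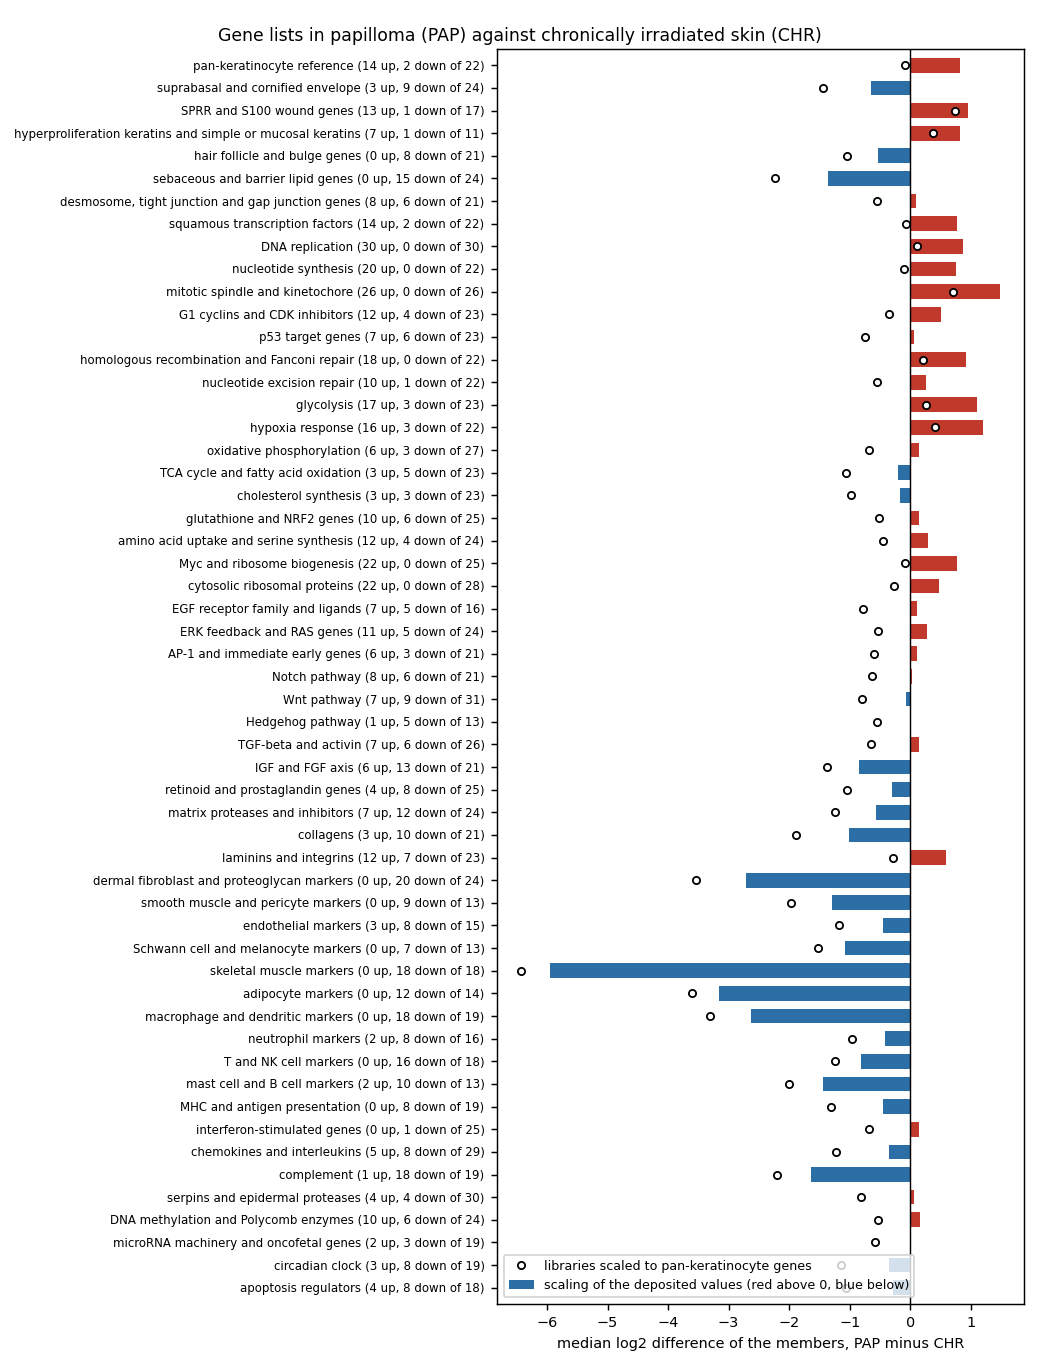
Median log2 difference (PAP minus CHR) of the members of 55 gene lists, with the scaling of the deposited values (bars) and with libraries scaled to pan-keratinocyte genes (open circles); labels give the members called higher and lower of those measured. The mitotic list stands furthest to the right at 1.49 and the skeletal muscle list furthest to the left at -5.96. The order depends on the scale. By limma-voom on recovered reads the median was 2.07 for the SPRR and S100 list and 1.73 for the mitotic list.

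The 12 largest increases included a pair of matrix proteases, an enzyme of prostaglandin synthesis, a cytokine and a growth factor. Mmp13, collagenase-3, was measured at 793 (172 to 2863) normalised reads in CHR and at 11461 (8177 to 14751) in PAP, a log2 difference of 3.74 ± 0.49 (limma, adjusted p = 0.000493). Mmp10, stromelysin-2, stood at 134 (15 to 805) against 2442 (1138 to 4217) normalised reads, a log2 difference of 3.36 ± 0.56. No papilloma reached down to the highest irradiated skin for either protease. Ptgs2, the inducible cyclooxygenase that starts prostaglandin synthesis, had 405 (121 to 1131) normalised reads in CHR and 3329 (1890 to 20588) in PAP. Pgf, placental growth factor of the vascular endothelial growth factor family, went from 45.7 (18.6 to 81.9) to 985 (527 to 2567) normalised reads. Tslp, an epithelial cytokine that acts on dendritic and T cells, went from 80.6 (27.1 to 619) to 1536 (1177 to 3034). The lowest papilloma exceeded the highest skin sample for each of these 3 genes, and for Pgf the lowest value in PAP was over 6 times the highest in CHR. Gsta4, a glutathione transferase for lipid aldehydes, rose by 3.47 ± 0.52 on the log2 scale, and its papillomas ranged widely, with 2260 (676 to 11080) normalised reads. Sh2d5, which encodes an adaptor protein with an SH2 domain, had the smallest error of these 12 genes, with a log2 difference of 3.43 ± 0.18 and an adjusted p in limma of 1.24e-05. Prl8a9, of the prolactin family best known from the placenta, was nearly unread in CHR with 2.76 (0 to 8.44) normalised reads and reached 391 (91.3 to 2004) in PAP. The other increases were those of Has3, a hyaluronan synthase, the membrane protease gene listed as Tmprss11bnl, the receptor phosphatase Ptprz1 and the gap junction gene Gjb2, with log2 differences of 3.25, 3.56, 3.22 and 3.22. All 12 stayed higher under keratinocyte scaling.

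The largest decreases, chosen outside the muscle and adipocyte lists, still held many genes of those tissues, and 11 of them are given here. Car3, carbonic anhydrase 3 of muscle and fat, fell from 17538 (8767 to 20453) to 5.34 (1.03 to 573) normalised reads, and Cd36, a fatty acid transporter, from 24926 (11872 to 34946) to 141 (55.4 to 585). Cmya5, Mybpc2, Mybpc1, Xirp2 and Myom2 belong to the sarcomere, and their papilloma medians lay between 1.17 and 43.1 normalised reads. In each of these 5 genes the papilloma of mouse 2 was the highest. The other decreases were those of Gpnmb, a glycoprotein of macrophages and melanocytes, the complement gene C4b, the dermal proteoglycan Dcn and Krt79, a keratin of the follicle opening and sebaceous duct. Gpnmb fell from 46379 (16553 to 63269) to 487 (167 to 1698) normalised reads, which is a log2 difference of -5.92 ± 0.51.

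**Figure D2:**
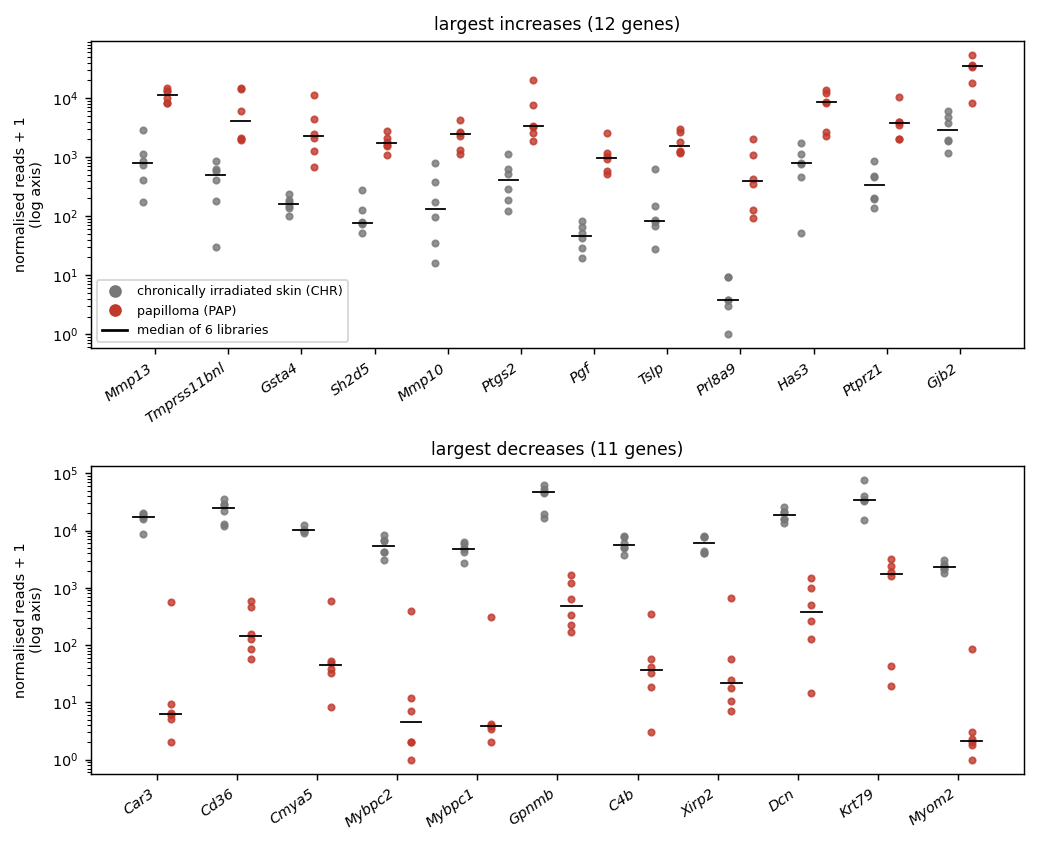
Normalised reads plus 1 (log axis) of the 12 genes with the largest increase and of 11 with the largest decreases, with a point for each of 6 CHR and 6 PAP libraries and a bar at each median. The groups do not overlap in any of the 23 genes, and the PAP point high above the others in several of the lower genes is the papilloma of mouse 2.

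Several genes of the basal layer and its attachment rose, and others of the same lists fell. Krt14, the basal keratin, named after its values were seen, went from 98021 (68481 to 120800) to 333610 (210370 to 467660) normalised reads, and from a median of 0.541% to 1.79% of all reads. Dsg3, the desmosomal cadherin of lower epidermal layers, rose by 2.19 ± 0.13 on the log2 scale, and the integrin genes Itgb4 and Itga6 of the hemidesmosome by 2.05 ± 0.12 and 1.96 ± 0.23. Lama3 and Lamb3 encode chains of laminin-332, the anchor of basal cells to the membrane, and rose together. Lama3 had 3984 (2245 to 7672) normalised reads in CHR and 17961 (13756 to 37186) in PAP, and Lamb3 had 1999 (1095 to 4050) and 8307 (7233 to 19654), with no overlap of the groups. The log2 differences were 2.39 ± 0.26 and 2.33 ± 0.31, and both remained increases under keratinocyte scaling (1.49 and 1.44). Col7a1, the collagen of the anchoring fibrils below this membrane, rose by 1.61 ± 0.28. By contrast the chains found around muscle, nerve and vessels fell, with Lama2 at -3.48 ± 0.37. Of 23 laminin and integrin genes 12 rose and 7 fell, with a median of 0.59 that turned to -0.29 under keratinocyte scaling. Not every keratinocyte gene followed, since Epcam (-1.30) and Cldn1 (-1.04), a cell adhesion molecule and a tight junction claudin, fell. The limma call was lost without mouse 7 or 8 for Epcam (adjusted p = 0.0516 and 0.0537) and without mouse 2, 8 or 10 for Cldn1 (adjusted p = 0.0596 to 0.0765).

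Late differentiation went the other way in part. Among 24 cornified envelope genes 3 rose and 9 fell, and the median difference was -0.64. Krt77, a keratin of the upper layers and sweat ducts, dropped from 1220 (381 to 22316) to 14.7 (5.08 to 55.4) normalised reads, and Flg2, filaggrin-2, from 14251 (5143 to 24672) to 1396 (26.3 to 2498). Both groups of values lay apart, with no papilloma within the range of irradiated skin. Hrnr, hornerin, fell by 1.98 on the log2 scale. Krt1 was not called, with a log2 difference of -1.67 ± 0.66, and its papillomas were at 66378 (9351 to 134760) normalised reads. It passed the limma test without mouse 7 (adjusted p = 0.0382) and without the mouse block (adjusted p = 0.0462). The 3 members that rose were Tgm3, an envelope cross-linking transglutaminase, at 2.21 ± 0.29, and the late cornified envelope genes Lce3c and Lce3e at 2.43 and 1.79, which are known to be induced in wounded and psoriatic skin. The limma call of Lce3e was lost without any one of mice 2, 7, 8, 9 and 10 (adjusted p = 0.064 to 0.11), and by limma-voom on the recovered reads (adjusted p = 0.0579). Those of the Lce1 cluster on the same list, Lce1a1, Lce1b and Lce1c, were named after their values were seen and fell by 1.69, 1.74 and 1.79. As families of close copies, the Lce, Sprr2, Krt6 and Klk genes can share reads, so the split within each family is uncertain.

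Wound-type epithelial genes formed the counterpart. Of 17 SPRR and S100 genes 13 rose and 1 fell, and of 11 hyperproliferation and mucosal keratins 7 rose and 1 fell. Krt6b went from 21757 (1930 to 36590) to 108270 (50224 to 197970) normalised reads, Krt6a from 41750 (23188 to 55768) to 171250 (112680 to 271440) and Krt16 from 25038 (4623 to 33500) to 62799 (33274 to 122420). For Krt6a the lowest papilloma lay above the highest skin sample. S100a9, a subunit of the alarmin calprotectin, was measured at 1620 (821 to 3947) and 12673 (1934 to 15869) normalised reads and rose by 2.40 ± 0.44. Sprr2f, a cornified envelope precursor of stratified mucosae, rose by 2.66 ± 0.59. The member that fell was S100a4, a gene of fibroblasts and leukocytes (-2.08 ± 0.27). Both lists kept positive medians under keratinocyte scaling, 0.74 for SPRR and S100 and 0.38 for keratins.

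The pilosebaceous genes gave no increase at all among the 45 measured. Of 24 sebaceous and barrier lipid genes 15 fell. Scd1, the stearoyl-CoA desaturase of the sebaceous gland, had 48979 (25798 to 58656) normalised reads in CHR and 1874 (818 to 2885) in PAP, a log2 difference of -4.64 ± 0.29. Far2, which makes fatty alcohols for wax esters, fell by 5.30, and Elovl3, which elongates fatty acids for sebum, had a log2 difference of -4.73 ± 0.56. Cers3 (0.61 ± 0.30) and Cyp4f39 (0.52 ± 0.27), which act on ultra-long ceramides, did not pass the test, and they stood at -0.28 and -0.35 under keratinocyte scaling. Of 21 hair follicle and bulge genes 8 fell, with Krt79, Foxc1 and Lgr5 at -5.48, -1.77 and -1.49.

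Junction genes held members in both directions. The connexins Gjb2 and Gjb6 rose from 2891 (1195 to 5939) to 34273 (8389 to 54257) and from 946 (251 to 1932) to 7662 (3753 to 14337) normalised reads, and no papilloma lay within the range of irradiated skin. Dsc2, desmocollin-2 of the desmosome, rose by 3.12 ± 0.33 on the log2 scale and remained higher by 2.24 under keratinocyte scaling. Tjp3 of the tight junction fell (-1.57 ± 0.33). The list as a whole had 8 members higher and 6 lower of 21, and its median of 0.09 turned to -0.55 under keratinocyte scaling.

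Transcription factors of squamous epithelium rose in 14 of 22 cases, but their median of 0.78 turned to -0.06 under keratinocyte scaling. Those that rose most were scarce in irradiated skin. Pitx1, a homeobox factor of hindlimb and oral epithelium, went from 30.3 (8.44 to 70.8) to 516 (59 to 1045) normalised reads, Sox2, a stem cell factor of foregut and squamous tumours, from 2.76 (0 to 7.26) to 82.5 (2.76 to 576), and Elf3, an epithelial ETS factor, from 80.6 (50.9 to 221) to 527 (151 to 1686). All 3 stayed higher under keratinocyte scaling (1.94, 1.51 and 1.16). Id2, an inhibitor of basic helix-loop-helix factors, and Cebpa, a factor of keratinocyte and fat differentiation, fell by 1.08 and 0.91 on the log2 scale. Cebpa was not called in limma without mouse 3 or 10 (adjusted p = 0.0758 and 0.0786).

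Genes of DNA replication and of mitosis rose without exception. All 30 DNA replication genes and all 26 genes of the mitotic spindle and kinetochore rose, and in each of the 26 mitotic genes the lowest papilloma exceeded the highest irradiated skin. Bub1, a kinase of the spindle checkpoint, was at 235 (195 to 289.9) in CHR and 952 (678 to 1872) normalised reads in PAP, Top2a, which untangles sister chromatids, at 3156 (2717 to 4046) and 10660 (7642 to 17011), and Kif20a, a kinesin of cytokinesis, at 537 (437 to 655) and 1964 (1363 to 2664). Their log2 differences were 1.80 ± 0.19, 1.77 ± 0.17 and 1.73 ± 0.13. Among replication genes the largest increases were those of Mcm5 (1.45 ± 0.17), Mcm10 (1.45 ± 0.16) and Pole (1.35 ± 0.14). Mcm5 is a subunit of the replicative helicase, Mcm10 acts in its activation and Pole is the leading-strand polymerase. Summed over the list, mitotic genes were 1.27 to 2.21 higher on the log2 scale in the 6 mice and replication genes 0.62 to 1.49. Under keratinocyte scaling, 22 of 26 mitotic genes but only 3 of 30 replication genes were still called higher, with medians of 0.71 and 0.12. Nucleotide synthesis rose in 20 of 22 genes, led by Shmt2 (1.67) of mitochondrial folate metabolism and the ribonucleotide reductase subunits Rrm2 (1.27) and Rrm1 (1.21), and its median of 0.76 turned to -0.10 under keratinocyte scaling.

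Promoters of these lists are shown because they differ in the short motifs they hold. Windows of 300 bases, from 250 before to 50 after the start of the gene, were available in RefSeq (GRCm38.p6) for 11226 genes, and both strands were searched. The motif of NFY, CCAAT, lay in 37.9% of all windows and in 17 of 22 of the mitotic list (77.3%). The motifs of E2F, TTTGGCGC and TTTCCCGC, lay in 2.82% of all windows and in 10 of 24 of the replication list (41.7%), and in 0 of 22 of the mitotic list. The replication windows also held CCAAT in 62.5%. These are matches of letters only, and the shares in the lists are descriptions. The 250 bases before the start are given for the 2 mitotic genes with the largest increase among those with at least 2 CCAAT in that stretch, and for the 2 replication genes with the largest increase among those with an E2F motif there. Capitals mark CCAAT or its reverse complement in Bub1 (chr2:127831860-127832109, minus strand) and Top2a (chr11:99024190-99024439, minus strand), and the E2F motif in Mcm5 (chr8:75109259-75109508, plus strand) and Pola1 (chrX:93632156-93632405, minus strand).
Bub1: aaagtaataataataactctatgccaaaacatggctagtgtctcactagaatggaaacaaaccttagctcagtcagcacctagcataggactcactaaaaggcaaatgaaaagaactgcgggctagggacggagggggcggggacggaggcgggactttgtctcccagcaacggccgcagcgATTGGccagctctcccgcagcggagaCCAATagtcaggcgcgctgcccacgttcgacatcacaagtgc
Top2a: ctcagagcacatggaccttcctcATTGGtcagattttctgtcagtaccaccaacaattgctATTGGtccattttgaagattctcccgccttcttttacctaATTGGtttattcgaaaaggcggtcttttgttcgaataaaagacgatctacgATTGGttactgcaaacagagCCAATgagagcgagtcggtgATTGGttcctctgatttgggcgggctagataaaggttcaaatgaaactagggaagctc
Mcm5: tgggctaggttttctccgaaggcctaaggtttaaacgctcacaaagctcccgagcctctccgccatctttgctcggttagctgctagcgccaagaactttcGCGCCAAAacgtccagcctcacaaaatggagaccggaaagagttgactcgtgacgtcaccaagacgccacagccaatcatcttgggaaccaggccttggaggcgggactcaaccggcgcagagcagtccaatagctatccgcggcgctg
Pola1: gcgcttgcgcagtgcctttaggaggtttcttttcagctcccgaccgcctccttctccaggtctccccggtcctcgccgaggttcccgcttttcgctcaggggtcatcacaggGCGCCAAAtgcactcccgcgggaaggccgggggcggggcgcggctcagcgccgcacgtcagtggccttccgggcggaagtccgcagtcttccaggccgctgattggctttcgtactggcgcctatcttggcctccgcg

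The stretch of Top2a held 6 copies, the first base of which lay 58 to 227 bases before the start, and that of Bub1 held 2, at 68 and 42 bases. In Mcm5 and Pola1 the E2F motif began 149 and 138 bases before the start. Pola1 rose by 0.87 on the log2 scale and stood at -0.001 under keratinocyte scaling. Over all genes that rose at least 2-fold the shares were close to those of all windows, with CCAAT in 41.1% and E2F in 3.23% of 433 windows. Among 1681 windows of genes that fell at least 2-fold, E2F lay in 0.952% and the motif of ETS factors, ACCGGAAGT, in 0.297%, against 2.0% of all windows for ETS. The CACGTG box of Myc was in 7.16% of windows of genes that rose, 7.32% of those that fell and 9.71% of all, and the longer form CACGTGAC, which contains it, was counted within it.

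**Figure D3:**
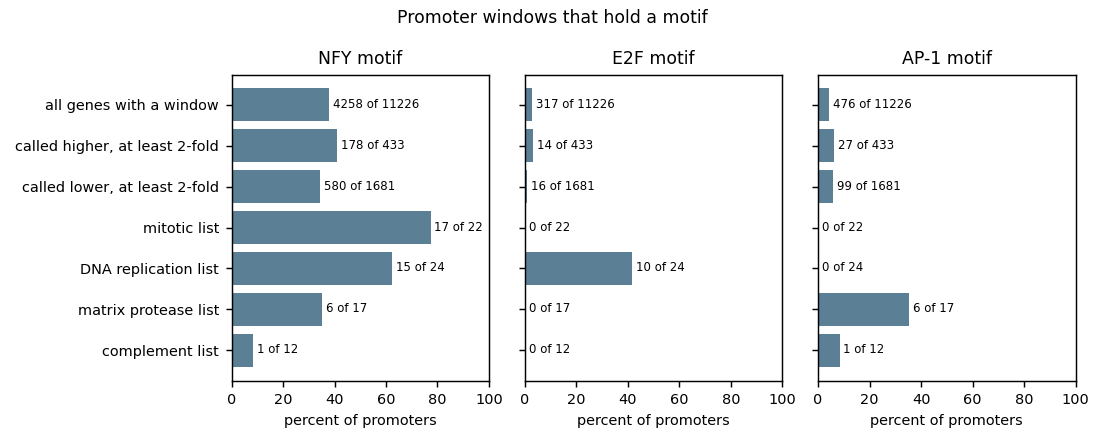
Percent of promoter windows of 300 bases that hold a motif for NFY, E2F or AP-1 on either strand, for all genes with a window, for genes called at least 2-fold higher or lower, and for 4 gene lists; each bar is labelled with its count. The tallest bars are NFY in the mitotic list (77.3%), E2F in the replication list (41.7%) and AP-1 in the matrix protease list (35.3%).

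Regulators of G1 did not all rise with the genes of S phase and mitosis. Of 23 genes 12 rose and 4 fell, and the median of 0.51 turned to -0.36 under keratinocyte scaling. E2f7, a repressor of the E2F family, went from 109 (88.5 to 186) to 905 (481 to 1068) normalised reads, and Ccnd1, cyclin D1, from 2123 (1713 to 2357) to 5826 (4183 to 9626). Cdkn1c, the p57 inhibitor of cyclin-dependent kinases, fell from 1608 (539 to 2152) to 15.8 (3.19 to 54.5), a log2 difference of -4.18 ± 0.34, and Ccnd2, cyclin D2, fell by 1.16. Cyclin D genes thus moved in opposite directions. The call of Ccnd2 in limma was lost without mouse 3, 7, 8, 9 or 10 (adjusted p = 0.0523 to 0.095). E2f2 fell as well (-0.80 ± 0.20), whereas E2f3 and the p27 gene Cdkn1b did not pass the test, with log2 differences of 0.26 ± 0.18 and 0.18 ± 0.12 that turned to -0.53 and -0.69 under keratinocyte scaling.

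Of 23 p53 target genes 7 were higher (30.4%) and 6 lower (26.1%), near the shares of all genes (23.8% and 29.7%). Their median of 0.06 turned to -0.74 under keratinocyte scaling. Trp53i11 (1.17), the death gene Pmaip1 (1.02) and Phlda3 (0.85, and -0.03 under keratinocyte scaling) rose. Eda2r, a receptor of the tumour necrosis factor family, fell from 359 (268 to 465) to 69.5 (34.5 to 159) normalised reads, and the stress gene Sesn1 from 1581 (1160 to 2018) to 813 (509 to 1008). Ccng1, cyclin G1, fell by 0.78 on the log2 scale. DNA repair was covered by a pair of lists. Homologous recombination and Fanconi genes rose in 18 of 22 cases with a median of 0.93. The largest increases were those of Rad51ap1 (1.20 ± 0.18), Brca1 (1.18 ± 0.16) and Fancd2 (1.18 ± 0.16). Under keratinocyte scaling the median was 0.22, but only 3 of the 22 genes were called higher and 5 were called lower. Brca1 (0.362) and Fancd2 (0.415) were not called there. Nucleotide excision repair, which removes ultraviolet lesions, had a median of 0.26. Of its 22 genes 10 were higher, among them Ercc1 (0.86 ± 0.12), and Ercc6, the Cockayne syndrome B gene, was lower (-0.71 ± 0.12). Under keratinocyte scaling the median of this list was -0.55, and Ercc1 became 0.058 and was not called.

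Genes of glycolysis and of the response to low oxygen were mostly higher. Of 23 glycolysis genes 17 rose and 3 fell, with a median of 1.10, and of 22 hypoxia genes 16 rose and 3 fell, with a median of 1.21. Slc2a1, the glucose transporter GLUT1, went from 2488 (1719 to 5241) to 17798 (6886 to 33310) normalised reads, and Slc16a3, the lactate exporter MCT4, from 879 (719 to 1441) to 4747 (3525 to 6815). Both stayed higher under keratinocyte scaling, by 1.68 and 1.38. Under this scaling 4 of the 23 glycolysis genes were called higher and 5 lower, with a median of 0.27, and 10 and 5 of the 22 hypoxia genes, with a median of 0.40. The 3 glycolysis members that fell, Eno3 (-4.80), Pfkm (-3.27) and Ldhb (-0.82), include the muscle isoforms of enolase and phosphofructokinase. Ldhb was not called by limma-voom on the recovered reads (adjusted p = 0.0635). Vegfa, the main vessel growth factor, rose from 1189 (878 to 1856) to 9604 (5850 to 13244) normalised reads, Car9, a carbonic anhydrase that is a classical target of HIF1, from 47.4 (43.9 to 73.6) to 456 (396 to 831), and Ndrg1 from 2548 (1626 to 3979) to 20105 (15591 to 33273). In all 6 mice the summed hypoxia level was higher in the papilloma, by 1.19 to 2.13 on the log2 scale. Hypoxia genes that fell were Lox (-2.79), which is a fibroblast gene too, Angptl4 (-1.89), a gene of fat, and Pfkfb4 (-0.58). Pfkfb4 was not called in limma without the mouse block (adjusted p = 0.0628) or without mouse 2, 3, 8 or 10 (adjusted p = 0.0683 to 0.0915). Reads of Gapdh, which has many processed copies in the genome, were few (87.1 normalised reads at the median in CHR), so its value is uncertain, as are those of ribosomal protein genes.

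Mitochondrial and cholesterol genes held a smaller share of calls than all genes tested. Of 27 genes of oxidative phosphorylation 6 rose, each by under 0.6 on the log2 scale, and the 3 that fell, Cox6a2 (-2.70), Cox8b (-2.62) and Cox7a1 (-1.62), are isoforms of heart and skeletal muscle. Their list median of 0.15 turned to -0.69 under keratinocyte scaling. Of 23 genes of the citric acid cycle and fatty acid oxidation 3 rose and 5 fell, with Cpt1b, the muscle carnitine transferase, at -1.94 ± 0.11 and the regulator Ppara at -1.51 ± 0.20. Cholesterol synthesis had 3 genes higher and 3 lower of 23, with a median of -0.18.

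Ribosome biogenesis genes rose in 22 of 25 cases and cytosolic ribosomal protein genes in 22 of 28, with 0 of either list lower and medians of 0.77 and 0.47, which turned to -0.08 and -0.26 under keratinocyte scaling. Myc itself went from 667 (624 to 825) to 1614 (1265 to 1852) normalised reads (1.15 ± 0.10), and Dkc1, of the pseudouridine complex, and Nop56 rose by 1.16 and 1.12. Under keratinocyte scaling Myc, Dkc1 and Nop56 became 0.297, 0.305 and 0.25, and none of them was called. Amino acid and polyamine genes rose in 12 of 24 cases, with a median of 0.29 that turned to -0.45 under keratinocyte scaling. Odc1, ornithine decarboxylase, the rate-limiting enzyme of polyamine synthesis and a known driver of skin papillomas, rose from 94.1 (41.3 to 221) to 648 (373 to 951) normalised reads, Arg1, arginase, from 394 (236 to 677) to 1851 (641 to 7292), and Slc7a1, an arginine transporter, from 1113 (922 to 1846) to 3833 (2290 to 5030). The 3 genes, which act in sequence from arginine to polyamines, kept their increase under keratinocyte scaling (1.37, 1.35 and 0.64). In contrast the transporters Slc38a1 and Slc1a5 fell by 1.61 and 1.33 on the log2 scale. The NRF2 and glutathione list was split, with 10 of 25 higher and 6 lower and a median of 0.14 that turned to -0.52 under keratinocyte scaling, and included Gsto1 (1.60) and Txn1 (1.46) on the rising side and Gpx3 (-2.66) and Gstm1 (-1.72) on the falling side.

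Ligands of the EGF receptor family separated into those that rose and those that fell. Epgn, epigen, went from 461 (308 to 956) to 3566 (1714 to 6997) normalised reads, Nrg1, neuregulin 1, from 108 (71.8 to 183) to 593 (212 to 1984), and Hbegf from 902 (574 to 1185) to 5030 (1487 to 5229). For Epgn and Hbegf the lowest papilloma lay above the highest skin sample. Btc, betacellulin, fell from 491 (250.5 to 1249) to 117 (38.8 to 222) and Nrg4 from 221 (148 to 281) to 30.8 (18.6 to 46.5), and Lrig1, which lowers receptor levels, fell by 1.32 on the log2 scale. Among the receptors, Erbb2 did not pass the test (0.22 ± 0.18, and -0.66 under keratinocyte scaling). The list median of 0.12 turned to -0.78 under that scaling. In the ERK and RAS list 11 of 24 rose and 5 fell, and the median of 0.27 turned to -0.54. Phlda1 (1.92 ± 0.21), the ERK phosphatase gene Dusp7 (1.74 ± 0.14) and Rras2 (1.48 ± 0.15) led the increases, whereas the feedback genes Dusp4 (-0.78 ± 0.17) and Spry1 (-0.62 ± 0.15) fell.

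Of 21 AP-1 and immediate early genes 6 rose and 3 fell, and the median of 0.12 turned to -0.60 under keratinocyte scaling. Fosl1, the FRA1 subunit of AP-1, rose from 30.4 (23.2 to 125) to 353 (267 to 833) normalised reads, Ier3 by 1.90 ± 0.23 and Junb by 1.15 ± 0.17 on the log2 scale. Egr2 and Atf3, which respond to stress and growth signals, fell from 1691 (1081 to 2954) to 181 (49.2 to 693) and from 1936 (880.3 to 2741) to 393 (279 to 489) normalised reads. Egr2 is also on the list of Schwann cell and melanocyte markers, of which 7 of 13 fell. Fosl2 and Egr3 did not pass the test, at 0.30 ± 0.14 and -0.74 ± 0.33, and Fosl2 turned to -0.60 under keratinocyte scaling. Egr3 passed it without mouse 9 (limma, adjusted p = 0.0449). Prostaglandin genes beside Ptgs2 moved unevenly, in that the synthase Ptges rose by 1.31 ± 0.27 and the receptor gene Ptger3 fell by 1.46. Retinoid genes included Aldh1a1 and Dhrs3, which oxidise and reduce retinal, and these fell from 275 (159 to 349) to 21.3 (1.99 to 82.9) and from 2418 (1737 to 3192) to 493 (169 to 746) normalised reads.

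Other signalling lists held genes in both directions. In the Notch list 8 of 21 rose and 6 fell, and the median of 0.02 turned to -0.64 under keratinocyte scaling. The ligands Jag1 and Dll1 rose by 1.34 ± 0.20 and 1.21 ± 0.21, while Rbpj, the DNA-binding partner of all Notch receptors, and the fringe gene Lfng fell by 1.02 and 1.21. Rfng, another fringe, rose by 1.35 ± 0.17. Under keratinocyte scaling Jag1 and Dll1 became 0.435 and 0.385, and neither was called. In the Wnt list 7 of 31 rose (22.6%) and 9 fell (29.0%), near the shares of all genes (23.8% and 29.7%). The 3 largest increases were ligands, Wnt3a (1.53 ± 0.20), Wnt4 (1.41 ± 0.38) and Wnt10a (1.41 ± 0.17), and the 3 largest decreases were secreted inhibitors, Sfrp4 (-2.74 ± 0.31), Dkk2 (-1.68 ± 0.21) and Wif1 (-1.13 ± 0.31). The list holds other ligands and inhibitors, so these genes, picked by size, do not stand for either class. Wif1 was not called in limma without mouse 8 (adjusted p = 0.0502), nor by limma-voom on the recovered reads (adjusted p = 0.0978). Axin2, a feedback target of the canonical pathway, was named after its value was seen and differed by -0.01 ± 0.15, which did not pass the test. In the Hedgehog list 1 of 13 rose, Smo (0.99 ± 0.09), and 5 fell, and the target Gli1 was not called (-0.38 ± 0.16). Under keratinocyte scaling the Hedgehog median of 0.02 became -0.54, and Smo became 0.125 and was not called. Of 26 genes of the TGF-beta and activin list 7 rose (26.9%) and 6 fell (23.1%), again near the shares of all genes. The median of 0.14 turned to -0.64 under keratinocyte scaling. The receptor genes Tgfbr3 and Tgfbr2 fell by 2.09 and 1.16 on the log2 scale.

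Of 21 genes of the IGF and FGF axis 13 fell and 6 rose, with a median of -0.85. Igf1 went from 2422 (1765 to 2852) to 343 (15 to 652) normalised reads, Fgf7, keratinocyte growth factor made by fibroblasts, from 198 (141 to 512) to 4.83 (0 to 56.3), and Igfbp5 from 2963 (2649 to 4211) to 158 (61.7 to 434). Dermal fibroblast markers fell in the same papillomas. The largest increases were those of Fgfr3, a receptor of keratinocytes, at 1.39 ± 0.23 and Fgfbp1, a carrier that releases FGF from matrix, at 1.32 ± 0.29. The differences became 0.50 and 0.43 under keratinocyte scaling, and neither was called there.

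Matrix proteases were divided into a small group with large increases and a larger one with decreases. Of 24 genes 7 rose and 12 fell. Mmp9, gelatinase B, went from 632 (366 to 2864) to 7104 (1846 to 9554) normalised reads, and with Mmp13 and Mmp10 it kept its increase under keratinocyte scaling (1.85, 2.87 and 2.60). Mmp12, the macrophage elastase, dropped from 16775 (7017 to 27164) to 1120 (684 to 2194) and Mmp19 from 1176 (659 to 12392) to 138 (59 to 206), and Timp2, an inhibitor, from 6712 (4006 to 8326) to 899.9 (98.9 to 1768). The AP-1 motif TGAGTCA was found in 6 of 17 promoter windows of this list (35.3%), against 4.24% of all windows, 6.24% of those of genes that rose at least 2-fold and 5.89% of those of genes that fell at least 2-fold. The 6 were Mmp1a, Mmp1b, Mmp3, Mmp10, Mmp13 and Plaur, of which Mmp3 (0.69, and -0.20 under keratinocyte scaling) and Plaur were not called. In limma Mmp3 was called without mouse 10 (adjusted p = 0.0493) and Plaur, as a decrease, without mouse 2 (adjusted p = 0.0403). Below, capitals mark this motif or its reverse complement in the 250 bases before the start of the 2 with the largest increase, Mmp13 (chr9:7272264-7272513, plus strand, 35 bases before the start) and Mmp10 (chr9:7502092-7502341, plus strand, 63 bases before).
Mmp13: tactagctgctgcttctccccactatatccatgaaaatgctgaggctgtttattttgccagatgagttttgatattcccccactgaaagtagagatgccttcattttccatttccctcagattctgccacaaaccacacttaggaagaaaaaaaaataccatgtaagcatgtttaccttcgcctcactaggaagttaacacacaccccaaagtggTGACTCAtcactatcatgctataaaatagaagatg
Mmp10: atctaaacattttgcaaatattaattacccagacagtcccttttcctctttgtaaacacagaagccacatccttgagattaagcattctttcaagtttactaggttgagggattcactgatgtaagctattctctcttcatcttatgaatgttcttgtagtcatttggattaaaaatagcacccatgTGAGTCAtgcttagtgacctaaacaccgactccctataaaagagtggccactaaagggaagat

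Of 21 collagen genes 10 fell and 3 rose, with a median of -1.004. Col3a1 went from 110230 (69748 to 181640) to 21090 (999 to 60011) normalised reads and Col6a5 from 1760 (1357 to 4598) to 22.1 (1.64 to 37.9). The 3 that rose were Col7a1, Col18a1 (1.15) and Col12a1 (0.68, and -0.23 under keratinocyte scaling). The basement membrane genes Col4a1, Col4a2, Col4a5 and Col4a6 of the same list were not among them. Vessel markers were mixed. Of 15 endothelial genes 8 fell, led by Tek (-1.89 ± 0.17), and 3 rose, namely Emcn (0.83 ± 0.11), Angpt2 (0.68 ± 0.21) and Flt1 (0.40 ± 0.12), and these 3 became 0.10, -0.04 and -0.44 under keratinocyte scaling. In limma the call was lost without mouse 2, 9 or 10 for Angpt2 (adjusted p = 0.058 to 0.0642), without mouse 8 or 9 for Flt1 (adjusted p = 0.0609 and 0.0569), and without mouse 2, 3 or 9 (adjusted p = 0.0581 to 0.0747) or the mouse block (adjusted p = 0.19) for Col12a1.

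Leukocyte genes fell with the dermal ones. Of 19 macrophage and dendritic markers 18 fell, and their summed level was 58008 to 92507 normalised reads in CHR and 2621 to 13994 in PAP. Lyz2, lysozyme of myeloid cells, went from 20956 (15241 to 30007) to 702 (234 to 3492), Mrc1, the mannose receptor, from 12420 (8540 to 13704) to 493 (349 to 1474) and Cd163 from 1294 (953 to 1739) to 20.9 (9.66 to 133). Complement genes fell in 18 of 19 cases, and C3 dropped from 20754 (16465 to 24220) to 387 (270.2 to 1582) normalised reads. T and NK markers fell in 16 of 18 cases with a smaller median of -0.81, from low levels, as for Cd4 with 500.4 (160.3 to 633) and 67.2 (16.4 to 88.5) normalised reads. The cytotoxic genes Gzmb and Gzma were the 2 that were not called (0.32 ± 0.20 and -0.11 ± 0.25), and Gzmb turned to -0.22 under keratinocyte scaling. Mast cell genes moved in both directions. Cpa3 and Cma1 of connective tissue mast cells fell, with log2 differences of -3.41 and -3.35, while Mcpt1 and Mcpt2, proteases of mucosal mast cells, rose from 22.6 (11.6 to 94.1) to 429 (114 to 1565) and from 18.3 (0 to 135) to 410.5 (127 to 1730) normalised reads. Neutrophil genes did not share a direction, with 2 of 16 higher and 8 lower. The 2 that rose, Stfa2 and Stfa1, belong to a cluster of close copies that keratinocytes can express as well. Stfa2 was not called in limma without mouse 7, 9 or 10 (adjusted p = 0.075 to 0.0843).

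Of 19 genes of antigen presentation 8 fell and 0 rose. The largest decreases were those of H2-Aa (-2.20 ± 0.29), H2-Eb1 (-2.12 ± 0.30) and Cd74 (-2.12 ± 0.30), which encode class II molecules and their invariant chain. Of 25 interferon-stimulated genes 24 were not called and Ifit2 fell (-0.78 ± 0.27), and the list median of 0.14 turned to -0.68 under keratinocyte scaling. Ifit2 was not called in limma without the mouse block (adjusted p = 0.2) or without mouse 2, 3 or 8 (adjusted p = 0.0947 to 0.107). Summed over this list the papilloma of mouse 2 held 8999 normalised reads and the others 31541 to 65229, and irradiated skin ranged from 8825 in mouse 10 to 93311 in mouse 3. Chemokines and interleukins included epithelial cytokines that rose, Tslp, Il33 (1.31 ± 0.26) and Il24 (2.54 ± 0.44), with Il24 going from 35.4 (5.6 to 279) to 596 (331 to 1037) normalised reads. Il33 became 0.415 under keratinocyte scaling and was not called there. Cxcl12, a stromal chemokine, fell from 4036 (3106 to 4586) to 184 (20.9 to 542). In all, 5 of 29 members rose (17.2%) and 8 fell (27.6%), against 23.8% and 29.7% of all genes. Il6 was not called (-0.27 ± 0.12). Without mouse 10 it passed the limma test (adjusted p = 0.0385).

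Of 24 DNA methylation and Polycomb genes 10 rose and 6 fell, and the median of 0.17 turned to -0.53 under keratinocyte scaling. Jarid2, a partner of Polycomb complex 2, rose by 1.33 ± 0.14, Uhrf1, which brings DNMT1 to replicating DNA, by 1.09 ± 0.11 and the methyltransferase gene Ezh2 by 0.70 ± 0.14. Under keratinocyte scaling these became 0.44, 0.29 and -0.14. Cbx6 and Cbx7, chromobox subunits of Polycomb complex 1, and Dnmt3a, a de novo methyltransferase, fell by 1.74, 1.38 and 1.01. Among 19 clock genes 3 rose and 8 fell, and Bhlhe40 and Bhlhe41, a pair of related repressors, moved apart, from 2612 (2105 to 2723) to 5500 (3474 to 9147) and from 516 (257 to 885) to 56.5 (33.7 to 122) normalised reads. Of 18 apoptosis regulators 4 rose and 8 fell, with Bmf (-1.43 ± 0.22) and Bcl2 (-0.91 ± 0.18) lower. Genes of the microRNA pathway gave 2 increases, Drosha (0.61 ± 0.13) and Xpo5 (0.50 ± 0.11), which act in the nucleus and in export and turned to -0.23 and -0.38 under keratinocyte scaling, and 3 decreases of 19, and the list median of 0.007 became -0.59. Epidermal proteases and serpins were mostly not called (22 of 30) and had a median of 0.07 that became -0.81 under keratinocyte scaling, with the kallikreins Klk14, Klk13 and Klk10 higher by 1.61, 1.48 and 0.88, of which Klk10 differed by -0.01 under keratinocyte scaling. In limma Klk13 was not called without mouse 7, 8, 9 or 10 (adjusted p = 0.0727 to 0.103), nor Klk10 without mouse 2 or 7 (adjusted p = 0.0684 and 0.0749) or the mouse block (adjusted p = 0.0746).

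Within the mouse, 23 of 55 lists had a higher summed level in the papilloma in all 6 mice, and 13 had a lower one. The plot by mouse shows how wide some of these ranges were. Cornified envelope genes were lower by 3.19 on the log2 scale in mouse 2 and higher by 0.45 in mouse 7, and interferon-stimulated genes ranged from -1.86 in mouse 2 to 1.84 in mouse 10. Ribosome biogenesis was even, at 0.58 to 0.91.

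**Figure D4:**
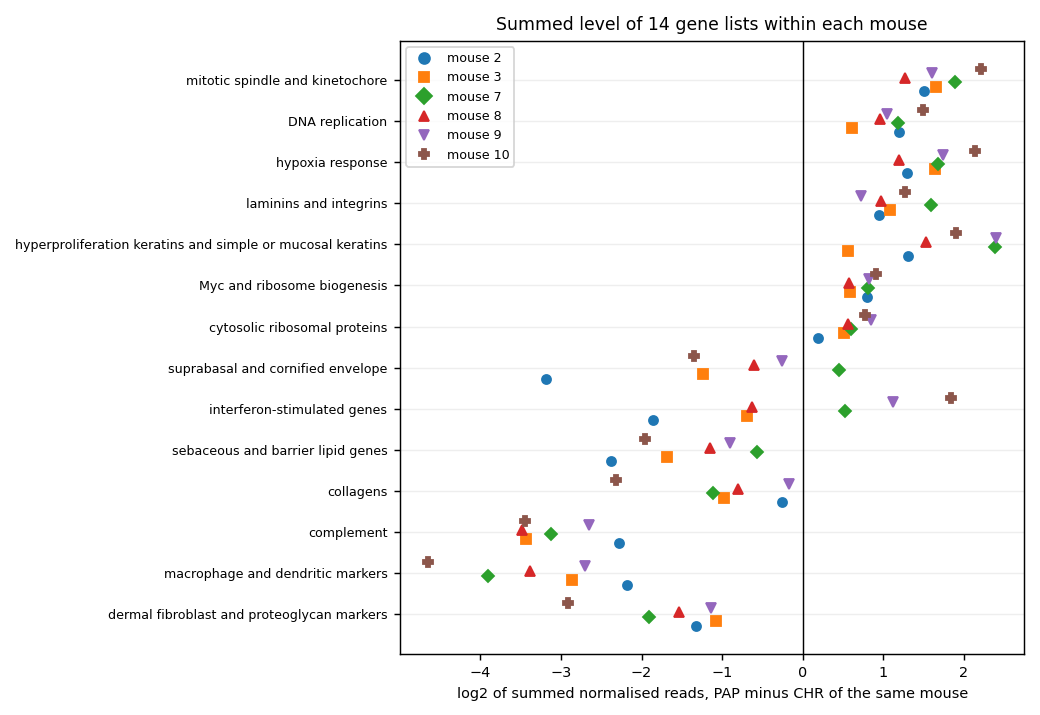
Difference in the log2 of summed normalised reads between the papilloma and the irradiated skin of each mouse, for 14 gene lists, with a symbol for each of 6 mice. Mitotic, replication and hypoxia genes lie to the right of 0 in 6 mice, complement and macrophage genes to the left in 6, and interferon-stimulated genes on both sides.

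Papillomas differed more from each other than irradiated skin samples did. The SD over 6 libraries, on the log2 scale of the deposited values, had a median over genes of 0.30 in PAP and 0.17 in CHR and was larger in PAP for 83.3% of genes. Genes with 0 reads numbered 24 to 93 in CHR and 84 to 541 in PAP, higher in the papilloma of 6 of 6 mice (exact sign-flip permutation test, two-sided, p = 0.03125, the smallest that 6 mice allow, and 0.0938 adjusted over 3 values tested per library). The genes with the widest spread among papillomas were picked by that spread, so they are a description. Pcsk2, a prohormone convertase of neuroendocrine cells, had 7202 normalised reads in the papilloma of mouse 10 and at most 1.03 in the other 5, against 0 to 34.5 in CHR. Its log2 difference was 0.97 in 6 mice and -0.30 without mouse 10. Hoxa9, a homeobox gene that marks body position, had 1467 in the papilloma of mouse 10, 215 in mouse 7, 27.9 in mouse 9 and at most 4.1 in mice 2, 3 and 8, while CHR held 56.3 to 221. Hoxa7 followed a similar order, with 684 to 913 in mice 7, 9 and 10 and 18.6 to 87.6 in the others. The papilloma of mouse 10 was also the lowest for several dermal genes. It held 999 normalised reads of Col3a1 and 20.9 of Lum, where the other papillomas held 20583 to 60011 and 627 to 2668. Hbb-bs, a beta globin of red cells, was highest in the papillomas of mice 3 and 10 at 49299 and 32224 normalised reads and lay between 1231 and 6167 in the other 4. In the papilloma of mouse 9, Chi3l4 and Slpi, secreted proteins of inflamed epithelium, reached 28151 and 17899, the highest of the 6. In limma Hoxa9 was called lower without mouse 10 (adjusted p = 0.0248), Slpi higher without mouse 3 (adjusted p = 0.0136) and Chi3l4 higher without mouse 2 (adjusted p = 0.0348), and none of the 3 was called with 6 mice. The genes thus picked out different papillomas, and that of mouse 10 was at an extreme for several of them.

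**Figure D5:**
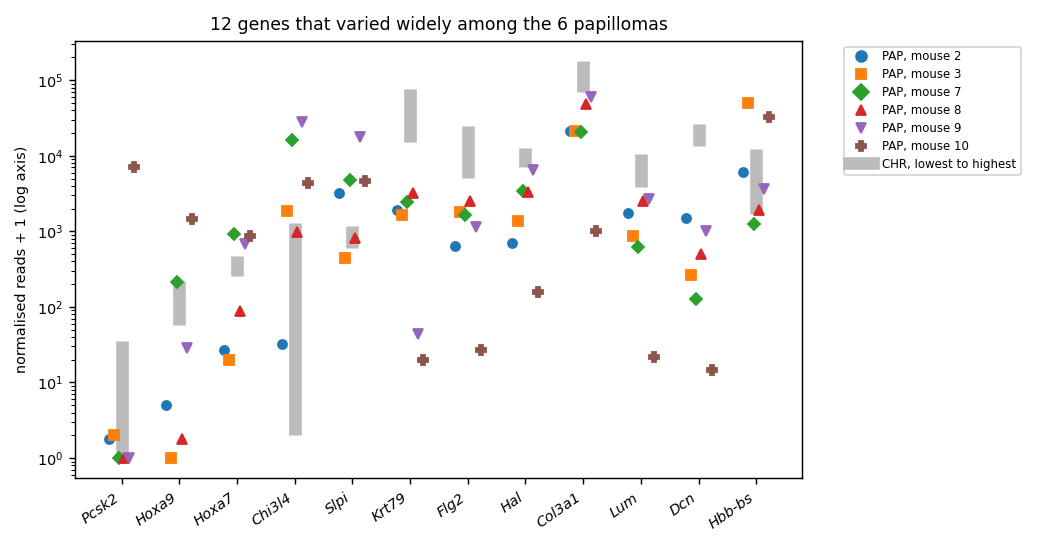
Normalised reads plus 1 (log axis) of 12 genes chosen for their wide range among papillomas, with a symbol for the papilloma of each of 6 mice and a grey bar from the lowest to the highest of 6 CHR libraries. Pcsk2 is high in the papilloma of mouse 10 alone, which is also the lowest for Flg2, Col3a1, Lum and Dcn.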

How the data were processed

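RNA-seq libraries of 6 papillomas and of the chronically irradiated skin of the same 6 mice were compared, out of 18 deposited. Per the labels the authors used HTSeq and mm10. The study's methods name MOSAIK for the human reads, and the aligner for mouse reads, strandedness and annotation release are not given in the sources used here. The deposited values are a score: gene counts that the authors divided by scaling factors, variance-stabilized with DESeq2 and rounded on the linear scale, so that 0 reads appear as 39. A scaling of batch medians is described without naming batches. The authors had removed low genes, and 21 rows without a symbol (at most 0.236% of a library) were left out.

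Reads were recovered by inverting the transformation, and 98.79% of values (100% of those under 100) came out as whole reads. These give the normalised reads in the text and the depth, 18.5 ± 1.77 M in CHR and 18.6 ± 1.81 M in PAP (SD, n = 6). Depth covers counting error only. Library pairs shared at most 2.24% of equal values. log2 of the deposited values was fitted with limma 3.58.1 (R 4.3.3) with the mouse as a block and Benjamini-Hochberg adjustment over 14521 genes. This scale understates changes of genes with few reads. The pairing comes from the study, in which samples of one number are one animal. Deviations of the PAP and CHR libraries of a mouse correlated by -0.229 to 0.219. The fit was also run on simulated data with few changed genes and the same spread setting in both groups. The data here differ in both respects, so that run gives no error rate for these calls. Single values were compared by exact sign-flip permutation over mice.

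The comparison, the 55 gene lists and the promoter motifs were chosen with earlier results of these data known. Genes were named as the 12 largest changes in each direction among those called, changed alike in 6 mice, with a mean of at least 200 normalised reads in the higher group and on neither the muscle nor the adipocyte list, and, per list, up to 3 called members in each direction and up to 2 not called with the smallest p. Krt14, Gapdh, Adipoq, Plin1, Pola1, Axin2, Plaur, Mmp1a, Mmp1b, 3 Lce1 genes and, for their spread, Pcsk2, Hoxa7, Hoxa9, Lum, Hbb-bs, Chi3l4 and Slpi were named after their values were seen. Of the genes this rule gave, 8 are not reported here. Alternatives were no mouse block, all 18 libraries, limma-voom on recovered reads, log2(normalised reads + 1 or + 10), minimum means of 10 or 100 normalised reads, other scalings and leaving out each mouse. Promoters are RefSeq windows of GRCm38.p6, the first of several where a gene had more than 1.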

Additional observations from a re-analysis of the deposited data

Results flagged for a closer look

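A sample that lay far from the other 5 of its group was looked for in 164 groups of 6 libraries, by a gap to the nearest sample that exceeded Dixon's 95% critical share of the whole range, and 16 were found. Chance alone flags about 1 in 20 groups. The 16 include the flags of Pcsk2. This gene was added to the search after its values were seen, so its flags cannot be set against that rate. Causes were not tested.

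Muscle genes of the papilloma of mouse 2 make up 7 of them. It held 573.1 normalised reads of Car3 where the other papillomas held 1.03 to 8.44, 589 of Cmya5 (others 7.26 to 51.8), 394 of Mybpc2 (others 0 to 10.9) and 303.8 of Mybpc1 (others 1.03 to 3.19). It likewise held 667.8 of Xirp2 (others 6.14 to 56.3) and 83.81 of Myom2 (others 0 to 1.99). Summed over 18 skeletal muscle markers it had 31088 normalised reads and the others 358 to 1452. The same papilloma had the lowest summed level of interferon-stimulated genes, 8999 against 31541 to 65229.

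Among the irradiated skin samples, that of mouse 10 had 8767 normalised reads of Car3 where the others had 16150 to 20450. That of mouse 2 stood apart in the summed level of G1 cyclins and CDK inhibitors (19818 against 22272 to 23204), in the share of reads in its 10 leading genes (8.31% against 6.65 to 7.24%) and in the number of leading genes that held 50% of its reads (1085 against 1152 to 1189). That of mouse 8 was lowest for AP-1 and immediate early genes, 24032 against 28684 to 31789.

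Pcsk2 had 7202 normalised reads in the papilloma of mouse 10 where the other papillomas had 0 to 1.03, and 34.53 in the irradiated skin of mouse 8 where the others had 0 to 2.76. The papilloma of mouse 3 was lowest for the summed SPRR and S100 genes, 33478 against 65175 to 95536.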

How the results depend on the processing

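The number of genes called was 7765 and lay between 6130 and 10612 over 17 alternatives, and with 1 mouse left out between 6565 and 7509. Without the mouse block it was 7907 with 12 libraries and 7473 with 18, and the block with 18 libraries gave 7636. Leaving out the block took the call from Col12a1, Ifit2, Klk10 and Pfkfb4 among 227 genes named and gave one to Krt1. Keratinocyte scaling changed most: 383 genes were higher and 10229 lower, 5017 were called at 2-fold or more (125 higher and 4892 lower), 122 distinct list members were higher and 668 lower, and 3 lists were higher and 29 lower in each mouse. Against 597 increases of at least 2-fold, limma-voom on recovered reads gave 978 and log2(normalised reads + 1) gave 921. These scales shrink low genes less by construction. With calls of any size the AP-1 share of promoters of increased genes was 3.34% and the ETS share of decreased genes 0.793%.

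Of 227 genes 12 changed sign under keratinocyte scaling and were called with or without it, with Angpt2 at -0.044, Cdkn1b at -0.69, Col12a1 at -0.23, Drosha at -0.23, Erbb2 at -0.66, Ezh2 at -0.14, Flt1 at -0.44, Fosl2 at -0.60, Klk10 at -0.011, Phlda3 at -0.032, Pola1 at -0.001 and Xpo5 at -0.38. No other alternative did this to a named gene. Another 28 kept their sign but lost their call under keratinocyte scaling, and 8 gained a call. Among the 28 were Myc (0.297), Rrm1 (0.319), Pole (0.50) and Junb (0.249). Calls were lost by limma-voom on recovered reads for Ldhb, Lce3e and Wif1, and on log2(normalised reads + 1) for Ccnd2, Ifit2, Klk13, Lce3e, Pfkfb4 and Stfa2 (adjusted p = 0.0503 to 0.0696).

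Leaving out 1 mouse gave 2741 to 3285 genes higher and 3804 to 4224 lower, 2565 to 2958 at 2-fold or more (536 to 655 higher and 2027 to 2323 lower), and 352 to 399 list members higher and 316 to 345 lower. Lists higher in each remaining mouse numbered 23 to 25 and lists lower 13 to 15. The mean excess of genes with 0 reads in PAP was 147 to 230, the difference in the 10 leading genes -0.026 to 0.992 percentage points, that in the number of genes holding 50% of the reads -161.8 to -88.0, and the share of genes with the larger SD in PAP 77.8 to 84.1%. Depth limits genes of few reads, for which 1 read changes a value.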

Other observations

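Genes were also grouped by chromosome, with values and no test, since genes of a chromosome are not independent. The median log2 difference of a chromosome ranged from -0.17 on chromosome 1, where 345 of 880 genes fell and 153 rose, to 0.11 on chromosome 5, where 216 of 898 fell and 272 rose. The X chromosome had a median of -0.15, with 177 of 449 genes lower. Single pairs went further than the group. In mouse 10 the medians of chromosomes 2 and 8 were 0.37 and 0.39, whereas in the other 5 mice that of chromosome 2 lay between -0.03 and 0. In mouse 3 chromosomes 14 and 19 had medians of -0.47 and -0.51.

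The number of leading genes that held 50% of all reads was 1085 to 1189 in CHR and 918 to 1202 in PAP, lower in the papilloma of 5 of 6 mice (exact sign-flip permutation test, two-sided, p = 0.0938, adjusted 0.141). The share of the 10 leading genes did not differ beyond the spread between mice (exact permutation p = 0.5625).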
